A study of Mus musculus with 27 samples.

Results

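The genes described here are 10 targets of serum response factor (SRF) and YAP that build or regulate the actin cytoskeleton, Acta2, Tagln, Cnn1, Actg2, Cald1, Tpm1, Myl9, Ccn1, Ccn2 and Ankrd1, out of 19938 genes with a probeset of their own. They were chosen by symbol, with their response to MOF RNAi in mouse embryonic stem (ES) cells already known, so their differences after MOF RNAi are given as a description with no test. Each gene had 1 probeset on the array. RNA of ES cells was measured on 27 Affymetrix gene arrays after transfection of small interfering RNAs (siRNAs), in 12 experiments that each had a control array with a negative control siRNA.

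PGK12.1 is a female line whose mother was 129 and whose father was a (129 x PGK)F1. It gave 3 arrays after siRNA against MOF, a histone H4 acetyltransferase encoded by Kat8, and 3 control arrays, numbered 1 to 3. Experiments lettered A to E in the same line gave 3 arrays labelled NSL1, 2 arrays of a double target (MOF and MSL1), 3 arrays after siRNA against MSL1 (a scaffold of the MSL complex) and 5 control arrays. NSL1 can mean Kansl1, a subunit of the NSL complex, or Nsl1 of the kinetochore, and the labels leave this unsettled. The male lines WD44, from BL6 blastocysts, and E14, labelled a hybrid of a BL6 mother and a Cast father, had 2 MOF and 2 control arrays each. Cells had 100 pmol of siRNA for 48 h, with 50 pmol of Msl1 siRNA besides in the double target, and in PGK12.1 experiments 1 and 2 knockdown and control cells were transfected again, with 400 pmol for 24 h. Every culture was kept in leukemia inhibitory factor and depleted of fibroblast feeder cells on gelatin before RNAi. The labels describe separate RNAi treatments of 1 line each, so the spread between experiments is that between treatments.

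SRF binds a short element called the CArG box. Its coactivators MRTFA and MRTFB are held back by free actin monomers, and when actin polymerizes they enter the nucleus and switch on genes of the contractile apparatus. YAP and its relative TAZ bind DNA through TEAD factors, respond to cell spreading and tension, and are held back by the LATS kinases. Many cytoskeletal genes answer to both systems, and in the early embryo YAP and TEAD4 are best known for their part in the choice between trophectoderm and inner cell mass.

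Promoters were available for 7 of the 10 genes, 8 promoters in all, from RefSeq on GRCm38.p6, each 300 bases long from 250 bases before the annotated start to 50 after it. They were searched on both strands for the CArG box in the strict form CCWWWWWWGG, where W is A or T. The search also covered the TEAD letters GGAATG, whose reverse complement is CATTCC. The promoters of Ccn1, Cald1, Acta2 and Myl9 are shown because the first 3 belong to the genes with the clearest differences below and the fourth to the gene that differed least. Capitals mark the matches, and each sequence runs 5′ to 3′ on the strand of its gene. The Ccn1 promoter lies at chr3:145649936-145650235 on the minus strand, the Cald1 promoter at chr6:34598254-34598553 on the plus strand, the Acta2 promoter at chr19:34255324-34255623 on the minus strand and the Myl9 promoter at chr2:156775214-156775513 on the plus strand.
Ccn1: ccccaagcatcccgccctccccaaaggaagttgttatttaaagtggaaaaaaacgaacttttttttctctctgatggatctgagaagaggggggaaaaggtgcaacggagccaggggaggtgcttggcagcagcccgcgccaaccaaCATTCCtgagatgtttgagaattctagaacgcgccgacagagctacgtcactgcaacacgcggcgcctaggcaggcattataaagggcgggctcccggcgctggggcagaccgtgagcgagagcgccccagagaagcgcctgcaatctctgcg
Cald1: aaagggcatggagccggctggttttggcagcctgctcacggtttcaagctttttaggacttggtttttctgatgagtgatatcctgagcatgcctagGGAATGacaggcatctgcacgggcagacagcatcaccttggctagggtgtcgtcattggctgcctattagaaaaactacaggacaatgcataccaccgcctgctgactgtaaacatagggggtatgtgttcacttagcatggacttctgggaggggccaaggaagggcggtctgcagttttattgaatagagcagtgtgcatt
Acta2: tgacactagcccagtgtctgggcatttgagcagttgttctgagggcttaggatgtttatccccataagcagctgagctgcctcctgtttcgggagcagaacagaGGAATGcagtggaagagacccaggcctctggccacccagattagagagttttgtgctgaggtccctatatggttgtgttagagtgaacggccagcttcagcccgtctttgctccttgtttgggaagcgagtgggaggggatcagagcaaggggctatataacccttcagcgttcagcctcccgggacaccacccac
Myl9: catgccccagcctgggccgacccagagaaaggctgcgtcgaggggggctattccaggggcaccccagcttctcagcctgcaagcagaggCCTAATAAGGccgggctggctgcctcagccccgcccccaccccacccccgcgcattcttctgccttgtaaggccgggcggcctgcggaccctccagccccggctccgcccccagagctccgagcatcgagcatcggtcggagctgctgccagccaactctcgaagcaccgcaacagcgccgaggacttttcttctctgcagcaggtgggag

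The TEAD letters began 103 bases before the start in Ccn1, 153 in this Cald1 promoter and 146 in Acta2. They were also found 56 bases before the start of Tpm1, and at 210 and 123 bases in Ankrd1. That made 5 of the 8 promoters, while 14.7% of all 32851 promoters held the same letters. A CArG box of the strict form was found in Myl9 alone, 161 bases before the start, and in 1.63% of all promoters. The Acta2 promoter holds CCCTATATGG and CCTTGTTTGG, which have a C or a G where that form has A or T. Such looser matches were not counted in any promoter. In the forms searched the 2 motifs did not meet in a promoter, and a match describes letters in a window, not a site that is in use.

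After MOF RNAi Kat8 was left at 38.7% to 48.0% of its control level in the PGK12.1 experiments. It was left at 51.8% and 60.3% of control in the WD44 experiments, and the E14 experiments kept 59.0% and 66.4%. On the arrays labelled NSL1 neither candidate target was clearly reduced. Probeset 10391990 of Kansl1 was at 80.7%, 80.6% and 92.8% of control in experiments C, D and E, its other probeset 10392010 at 129%, 133% and 168%, and Nsl1 at 113%, 120% and 107%. What follows for these arrays is therefore given by their label. Arrays were grouped into 6 sets by line and by experiment number or letter, and the labels name no such sets. Array medians ran from 6.22 to 7.96, the highest in WD44, so the arrays were not on 1 scale. The medians of E14 (6.76 to 6.78) lay within those of PGK12.1 experiments A to C (6.74 to 6.81). Log2 levels are therefore compared within an experiment or within an array set only. Across sets the rank of a probeset among the 35556 of its array is used. The 8 ES cell markers had median percentile ranks of 96.0 to 98.2 on the arrays of all 3 lines. Single markers differed. Zfp42 stood at 72.0 to 72.1 in WD44 controls, against at least 87.6 on the other control arrays. Klf4 stood at 79.0 to 80.6 in WD44 controls, against at least 84.7. Esrrb (90.3 to 92.2 against at least 94.6) and Nanog (96.1 to 96.3 against at least 98.6) were lower there too. Pou5f1, Sox2, Tdgf1 and Dppa5a in WD44 controls overlapped with the other controls. The 16 fibroblast markers had median percentile ranks of 35.7 to 48.0. Since the samples are bulk RNA, fewer cells of a type and less RNA per cell cannot be told apart.

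The control arrays already separated the lines. Each of the 10 genes ranked higher on both WD44 control arrays than on any control array of E14 or PGK12.1. Acta2, smooth muscle alpha actin, stood at percentiles 90.0 and 90.4 in WD44, against 50.5 to 75.9 on the other control arrays. Tagln, the actin-binding protein transgelin, stood at 87.5 and 88.9 in WD44, against 32.2 to 70.6. Cnn1, a calponin that binds actin and slows myosin, stood at 81.0 and 83.1 in WD44, against 34.7 to 51.4. Myl9, the regulatory light chain of nonmuscle and smooth muscle myosin, stood at 79.7 and 81.5 in WD44, against 41.0 to 62.4. These 4 contractile genes therefore lay in the upper part of the WD44 control arrays and spread from 32.2 to 75.9 on the other controls.

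The gap was narrower for genes that ranked high in every line. Ccn2, a secreted matrix protein once called CTGF, stood at 96.3 and 96.8 in WD44, against 84.3 to 92.7. Ccn1, its relative once called CYR61, stood at 95.3 in WD44, against 72.9 to 85.7. Tpm1, a tropomyosin that lines the actin filament, stood at 94.1 and 94.3, against 78.8 to 88.2, and Cald1, the actin- and myosin-binding caldesmon, at 84.8 and 85.0, against 65.6 to 77.3. Actg2, the gamma actin of enteric smooth muscle, stood at 37.7 and 39.1 in WD44, against 30.1 to 37.6, so that WD44 and PGK12.1 experiments 1 and 2 were next to each other. Ankrd1, an ankyrin repeat protein of muscle that is also a common YAP readout, stood at 42.4 and 43.0 in WD44, against 23.7 to 27.9. WD44 was the line from BL6 blastocysts and made up an array set of its own, so line, strain and array set cannot be told apart for it. E14 and WD44 are male and PGK12.1 is female, so sex changed with line only in comparisons with PGK12.1.

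Of the simple keratins, Krt8 and Krt18 moved with these ranks and Krt7 did not. Krt7 stood at 68.0 to 70.2 in WD44 controls, at 70.4 to 72.1 in E14 controls and at 40.1 to 57.5 in PGK12.1 controls. Krt8, a keratin of trophectoderm and other epithelia, stood at 97.1 and 97.2 in WD44 controls, against 69.9 to 89.1 in the other control arrays, and its partner Krt18 at 94.1 and 94.6, against 59.7 to 82.4. The fibroblast collagen Col1a1 stood at 64.9 to 66.3 in WD44 controls and at 58.0 to 67.0 in the others, and Col3a1 at 45.2 to 47.3 and 47.7 to 56.9. Dcn and Lox, which fibroblasts also express, ranked higher in WD44 controls, at 55.9 to 60.4 and 52.2 to 58.8, against at most 28.7 and 39.0 in the others. The fibroblast markers Lum, Postn and Fap lay at or below percentile 21.3 on every control array.

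**Figure D1:**
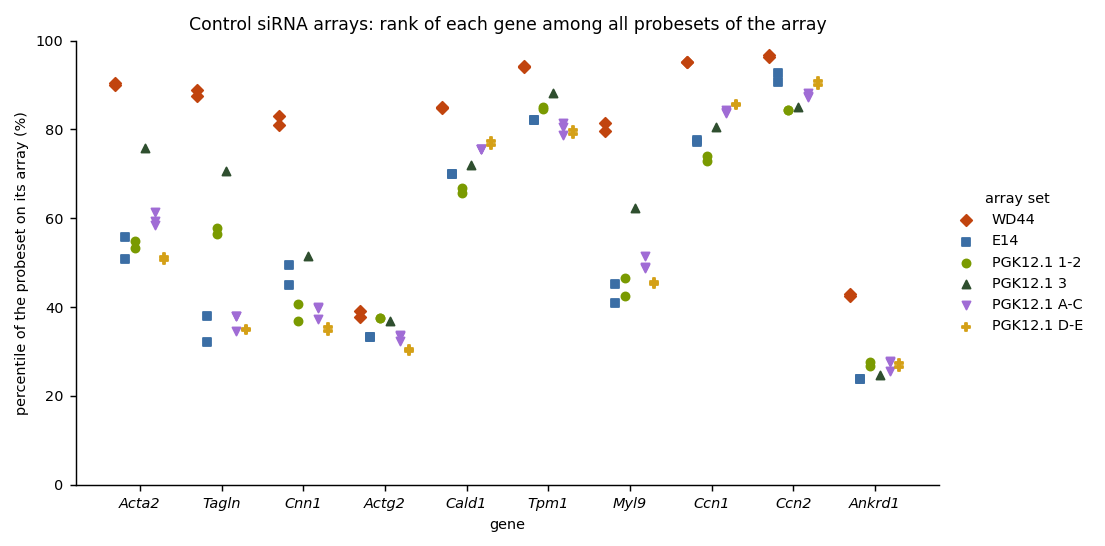
Percentile of each gene's probeset among all probesets of its array, for the 13 arrays with control siRNA, by array set. Both WD44 arrays lie above every other control array for each of the 10 genes, by a wide margin for Acta2, Tagln, Cnn1 and Myl9 and narrowly for Actg2.

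PGK12.1 was not uniform either. The control array of experiment 3 ranked Acta2 at 75.9, Tagln at 70.6 and Myl9 at 62.4. The controls of experiments 1 and 2 gave 53.2 to 54.9, 56.5 to 57.7 and 42.5 to 46.6. Controls A to E gave 50.5 to 61.5 for Acta2 and 34.6 to 38.0 for Tagln. Experiment 3 had 1 round of RNAi where experiments 1 and 2 had a second one. Its array medians differed as well, at 6.47 to 6.5 against 6.225 to 6.3, so that these cannot be told apart.

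After MOF RNAi the 10 genes differed from control in a line-dependent way. In WD44 9 of the 10 genes were higher than control in both experiments, and Myl9 was the exception. In PGK12.1 6 of the 10 were higher in all 3 experiments. In E14 Acta2, Tpm1, Actg2 and Ankrd1 were higher in both experiments, while Cald1 and Ccn1 were lower in both. The median difference over the 10 genes was 0.35 (log2) in WD44, 0.16 in PGK12.1 and 0.02 in E14, against medians of -0.02, 0.00 and 0.01 over all 16283 probesets tested. The E14 value was 0.12 with MOF array 1 alone and -0.11 with MOF array 2 alone, so its sign rests on the experiment. Of the 10 genes, 8 passed the filter on low values, a mean log2 level of at least 6 over all arrays, and the same number passed it without the WD44 arrays. Actg2, with a mean of 5.88, and Ankrd1, with 5.57, did not pass, and Cnn1 passed with 6.68.

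The limma fit with the experiment as a block called 6 of these 8 genes higher and 0 lower in WD44, where 4.38% of all probesets were called higher and 7.98% lower. It called 3 higher (Ccn1, Tpm1 and Ccn2) and 0 lower in PGK12.1, where the shares over all probesets were 9.49% and 13.9%. In E14 it called 1 higher (Acta2) and 2 lower (Cald1 and Ccn1), with shares of 3.6% and 4.73%. A call is an adjusted p under 0.05 by Benjamini-Hochberg over all probesets tested. Nothing is read from these 3 counts, because the choice of the genes used the same contrasts.

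**Figure D2:**
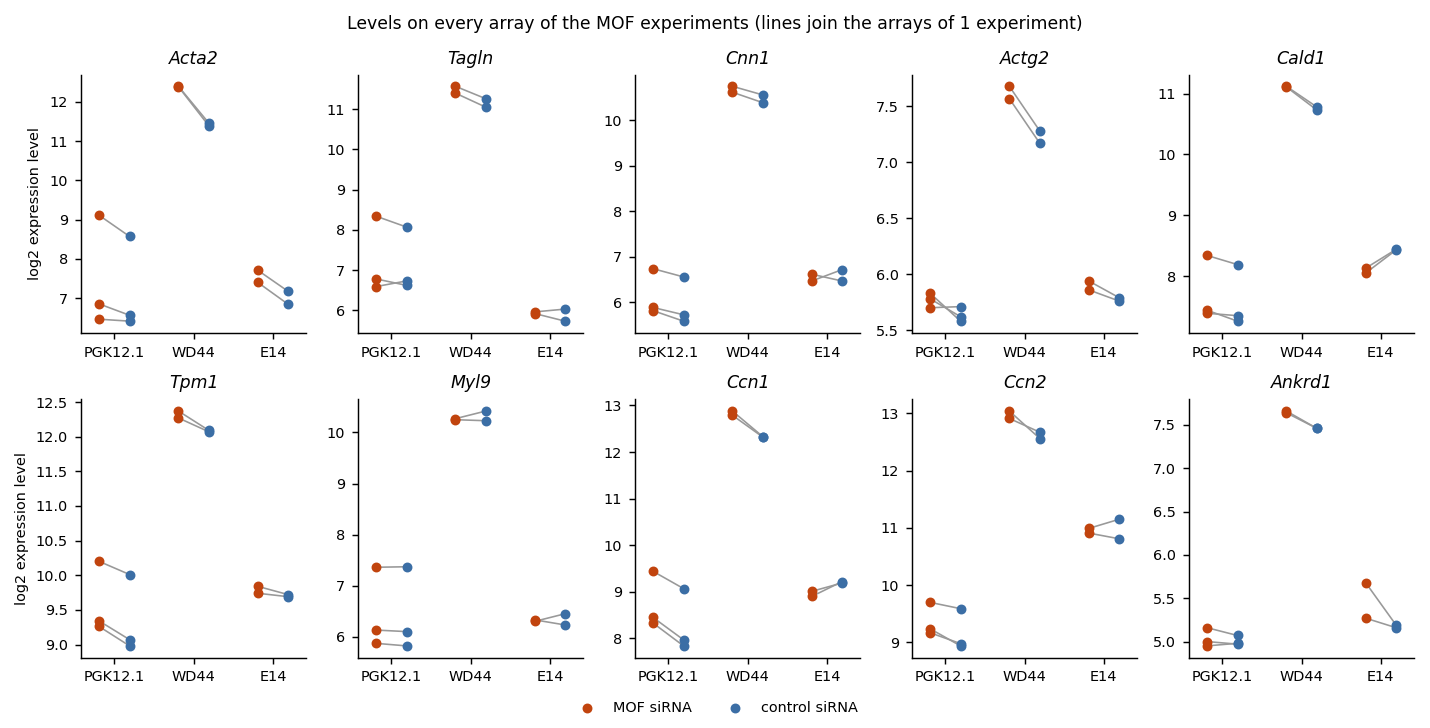
Log2 expression level of each gene on every array of the MOF experiments, MOF siRNA left of control siRNA in each line, with a grey line joining the arrays of 1 experiment. In WD44 the lines run downward to the control for every gene but Myl9, and in E14 they run upward to the control for Cald1 and Ccn1. Scales differ between panels, and levels of different lines come from array sets with different medians.

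Among the contractile genes, Acta2 had 12.40 and 12.39 (log2 level) after MOF RNAi in WD44, against 11.46 and 11.39 in its controls. Its difference of 0.97 is a 1.96-fold higher level, and the groups did not overlap. In E14 Acta2 had 7.40 and 7.71 after MOF RNAi, against 6.84 and 7.17 in the controls, a difference of 0.55 ± 0.01 (SD, n = 2). In PGK12.1 it had 6.85, 6.46 and 9.11 after MOF RNAi, against 6.56, 6.41 and 8.57 in the controls. The PGK12.1 groups overlap because experiment 3 stands apart, and within experiments the differences were 0.29, 0.05 and 0.54. Acta2 and Tpm1 were the genes of the 10 that were higher after MOF RNAi in each experiment of the 3 lines.

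Tagln had 11.57 and 11.40 after MOF RNAi in WD44, against 11.26 and 11.05 in the controls. Its sign varied in the other lines, with differences of -0.14, 0.16 and 0.27 in PGK12.1 and of 0.19 and -0.07 in E14. Cnn1 was higher by 0.23 and 0.19 in WD44 and by 0.23, 0.16 and 0.18 in PGK12.1, without a call in either. In E14 its differences were 0.15 and -0.25, so that the experiments disagreed. Actg2, outside the filter, was higher by 0.40 in both WD44 experiments and by 0.15 and 0.10 in E14. Its level lay low on the array, and in WD44 the 1628 probesets with the lowest control levels had a median difference of 0.12, while the 1629 with the highest had -0.03.

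Among the regulators of the filament, Cald1 had the clearest opposition between lines. It had 11.12 and 11.11 after MOF RNAi in WD44, against 10.78 and 10.73 in the controls, and 8.05 and 8.13 in E14, against 8.43 and 8.44 in the controls. The groups did not overlap in either line, and the differences were 0.36 ± 0.03 and -0.34 ± 0.05 (SD, n = 2 each). In PGK12.1 Cald1 was higher by 0.18, 0.04 and 0.15. Tpm1 was higher in every experiment, by 0.20 and 0.28 in WD44, 0.28, 0.27 and 0.19 in PGK12.1 and 0.05 and 0.12 in E14. Myl9 differed least, by -0.15 and 0.02 in WD44, 0.03, 0.05 and -0.01 in PGK12.1 and 0.10 and -0.15 in E14.

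Of the secreted YAP targets, Ccn1 had 12.88 and 12.79 after MOF RNAi in WD44, against 12.33 and 12.32 in the controls. In PGK12.1 it had 8.33, 8.45 and 9.44 after MOF RNAi, against 7.84, 7.97 and 9.07 in the controls. In E14 it had 8.90 and 9.01 after MOF RNAi, against 9.22 and 9.19 in the controls. Ccn1 was therefore higher in 5 of 5 experiments of WD44 and PGK12.1, by 0.37 to 0.55, and lower in both of E14, by -0.32 and -0.18. Ccn2 was higher by 0.48 and 0.24 in WD44 and by 0.30, 0.19 and 0.11 in PGK12.1, and it had differences of 0.10 and -0.16 in E14. Ankrd1, outside the filter, was higher by 0.20 and 0.18 in WD44 and by 0.49 and 0.11 in E14, with 0.09, -0.03 and 0.03 in PGK12.1. Its WD44 control level was 7.46, and tested probesets with WD44 control levels of 7.385 to 7.87 had a median difference of 0.09.

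Other markers moved in the WD44 comparison too. Of 9 fibroblast markers tested, 6 were called higher after MOF RNAi in WD44 and 0 lower. These were the collagens Col1a1 (0.38), Col5a2 (0.33), Col6a3 (0.34), Col1a2 (0.31), Col3a1 (0.31) and Col6a1 (0.24). The mean level of the 16 fibroblast markers was 7.51 and 7.55 on the MOF arrays, against 7.35 and 7.38 on the WD44 control arrays and the 7 fibroblast markers outside the filter differed by -0.28 (Dcn) to 0.39 (Lox). Krt18 was called higher by 0.45, and Krt8 differed by 0.37 without a call. Of 6 mesoderm markers 2 were called higher in WD44 (Hand1 by 0.36 and Foxf1 by 0.27), of 8 heart and skeletal muscle markers 2 (Myod1 by 0.32 and Tnnt2 by 0.25) and of 7 trophectoderm markers 2 (Krt18 and Hand1), with 0 lower in each list. Of 11 primitive endoderm markers 3 were called higher (Col4a2 by 0.42, Sparc by 0.28 and Col4a1 by 0.27) and 1 lower (Dab2, by -0.33). Over all probesets 4.38% were called higher in WD44 and 7.98% lower. In E14 and PGK12.1 0 of the 9 fibroblast markers were called, but other lists had calls there. In PGK12.1 2 trophectoderm markers and 1 primitive endoderm marker were called higher, and 1 mesoderm and 2 ES cell markers lower. In E14 2 primitive endoderm, 1 mesoderm, 1 heart and skeletal muscle and 1 ES cell marker were called lower. Over all probesets 9.49% were called higher and 13.9% lower in PGK12.1, and 3.6% and 4.73% in E14. In WD44 0 of the 8 ES cell markers were called. The part of the markers in the WD44 result was not tested.

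Lists of genes of both pathways, drawn up with earlier results of these data known, put the 10 genes beside their neighbours. Of 26 other SRF and MRTF cytoskeletal targets tested, 9 were called higher and 0 lower after MOF RNAi in WD44, 3 higher and 3 lower in PGK12.1, and 0 higher and 1 lower in E14. The shares of all probesets called higher and lower were 4.38% and 7.98% in WD44, 9.49% and 13.9% in PGK12.1 and 3.6% and 4.73% in E14, and nothing is read from these list counts, since the lists were drawn up with these contrasts known. In WD44 the genes called included the skeletal actin Acta1 (0.60), the tropomyosin Tpm2 (0.41) and the actin nucleator leiomodin, Lmod1 (0.38). The intermediate filament gene Des was lower in every experiment of all 3 lines, with mean differences of -0.34 in WD44, -0.34 in PGK12.1 and -0.29 in E14, and was called in PGK12.1 alone. Vcl, the focal adhesion protein vinculin, was lower by -0.41 in PGK12.1 and -0.35 in E14. Of 12 immediate early genes that SRF controls with TCF factors, 0 were called in WD44. In E14 Egr1 was called lower, with a difference of -0.84, and Nr4a1 higher, with 0.30. In PGK12.1 Nr4a1 was the gene called, higher by 0.19.

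Of 16 other YAP targets tested, 6 were called higher and 0 lower in WD44, 6 higher and 1 lower in PGK12.1, and 0 higher and 1 lower in E14, beside the same shares and again with nothing read from them. The WD44 genes were tissue factor F3 (0.51), Tgfb2 (0.38), Igfbp3 (0.38), Crim1 (0.33), Myof (0.33) and the receptor kinase Axl (0.32). In PGK12.1 the phosphatase Ptpn14 had the largest difference, 0.67, followed by Nuak2 (0.27), Gadd45a (0.25) and Amotl2 (0.24). Ptpn14 and Gadd45a are also targets of p53. In E14 the gene called was Myof, a membrane repair protein, lower by -0.54.

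The arrays labelled NSL1 were no part of the contrasts by which the 10 genes were chosen, though earlier results of these data were known, and here tests were made. Cald1, Ccn1 and Ccn2 rose on them relative to control, while the smooth muscle genes Acta2, Tagln and Cnn1 did not pass the test. The fit called 3 of the 8 genes tested higher and 0 lower, where 18.4% of all probesets were called higher and 21.4% lower. The median difference of the 10 genes was 0.14, where the median over all probesets tested was -0.01.

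Cald1 had 9.33, 9.43 and 9.41 (log2 level) on arrays labelled NSL1 in experiments C, D and E, against 9.0, 9.09 and 8.97 in their controls. Every NSL1 array lay above the control array of its own experiment. The fitted difference was 0.36 (SE 0.05, limma adjusted p = 1.63e-05), a 1.28-fold change, and it was positive in 3 of 3 experiments. Ccn1 had 10.41, 10.39 and 10.29 on arrays labelled NSL1, against 9.97, 10.07 and 10.06 in the controls. The fitted difference of Ccn1 was 0.34 (SE 0.05, limma adjusted p = 9.9e-05, positive in 3 of 3 experiments). Ccn2 had 10.86, 11.20 and 11.18 on arrays labelled NSL1, against 10.35, 10.85 and 10.68 in the controls. Within experiments Ccn2 was higher by 0.51, 0.34 and 0.50. Its fitted difference was 0.44 (SE 0.06, limma adjusted p = 3.25e-05).

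The other 5 genes tested were not separated from control. Acta2 differed by 0.51, 0.14 and -0.04 in C, D and E, with a fitted difference of 0.22 (95% interval -0.03 to 0.46). Myl9 had a fitted difference of 0.12 (95% interval -0.01 to 0.26), and Tpm1 one of 0.11 (95% interval -0.00 to 0.21). Tagln and Cnn1 had fitted differences of -0.04 (95% interval -0.19 to 0.12) and -0.02 (95% interval -0.15 to 0.12). Adjusted p-values of these 5 genes in limma lay between 0.115 and 0.877, so that gains of the size seen for Ccn1 lay outside the intervals of Tagln, Cnn1, Tpm1 and Myl9, but not of Acta2. Outside the filter, Ankrd1 was higher by 0.08 to 0.22, and Actg2 differed by -0.12 to 0.00.

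**Figure D3:**
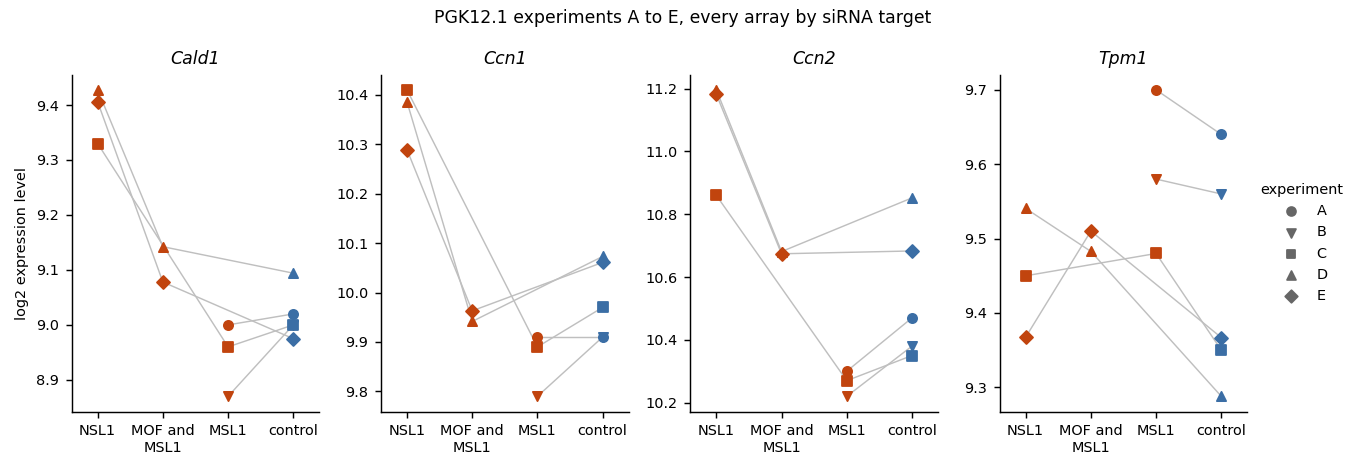
Log2 expression level of Cald1, Ccn1, Ccn2 and Tpm1 on every array of PGK12.1 experiments A to E, with knockdown arrays in orange, control arrays in blue, and lines joining arrays of 1 experiment. For Cald1, Ccn1 and Ccn2 each NSL1 array lies above the other arrays of its experiment, and for Tpm1 this holds in experiment D only.

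The double-target arrays of experiments D and E gave a different picture from NSL1 in the same experiments and against the same controls. After MOF and MSL1 RNAi 0 of the 8 genes were called in either direction in limma, where 3.24% of all probesets were called higher and 3.19% lower. An unadjusted p under 0.05 was found for 1 of the 8 genes and for 3400 of all 16283 probesets tested, so it does not set the gene apart. Kat8 was left at 56.3% and 52.8% of control, and Msl1 at 71.2% and 74.8%. Cald1 had 9.14 and 9.08 in the double target, against 9.09 and 8.97 in the controls. Ccn1 had 9.94 and 9.96, against 10.07 and 10.06, and Ccn2 had 10.68 and 10.67, against 10.85 and 10.68. The fitted differences were 0.06 (95% interval -0.05 to 0.18) for Cald1, -0.08 (95% interval -0.21 to 0.05) for Ccn1 and -0.08 (95% interval -0.23 to 0.08) for Ccn2. Acta2 was inconsistent, with differences of 0.46 in D and -0.20 in E. Tpm1 was the gene under the unadjusted threshold, with 0.16 (95% interval 0.03 to 0.29, limma adjusted p = 0.143).

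Set directly against the double target, arrays labelled NSL1 had higher levels of the same 3 genes. The limma contrast called 3 of 8 genes higher and 0 lower, where 11.3% of all probesets were called higher and 15.2% lower. The fitted difference was 0.52 for Ccn2 (SE 0.07, limma adjusted p = 0.000139), 0.42 for Ccn1 (SE 0.06, limma adjusted p = 0.000246) and 0.29 for Cald1 (SE 0.05, limma adjusted p = 0.00115), each positive in 2 of 2 experiments. Acta2 differed by 0.00 with a 95% interval of -0.30 to 0.29, and Tpm1 by -0.05 with one of -0.18 to 0.08.

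After MSL1 RNAi alone, 0 of the 8 genes were called in limma, where 0.0983% of all probesets were called higher and 0.086% lower. Msl1 was left at 42.9% to 56.3% of control. The median difference of the 10 genes was 0.04, against 0.01 after the double target. A single gene of the 8 had an unadjusted p under 0.05, and 1566 of all probesets tested did. That gene was Ccn2, which had 10.30, 10.22 and 10.27 after MSL1 RNAi in A, B and C, against 10.47, 10.38 and 10.35 in the controls. The 2 groups did not overlap, and the fitted difference was -0.14 (95% interval -0.27 to -0.02, limma adjusted p = 0.437). Ccn1 and Cald1 had fitted differences of -0.09 (95% interval -0.20 to 0.02) and -0.06 (95% interval -0.15 to 0.04), and Acta2 one of 0.15 (95% interval -0.09 to 0.40). The increases that Ccn1, Ccn2 and Cald1 showed on arrays labelled NSL1 lay above these intervals.

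**Figure D4:**
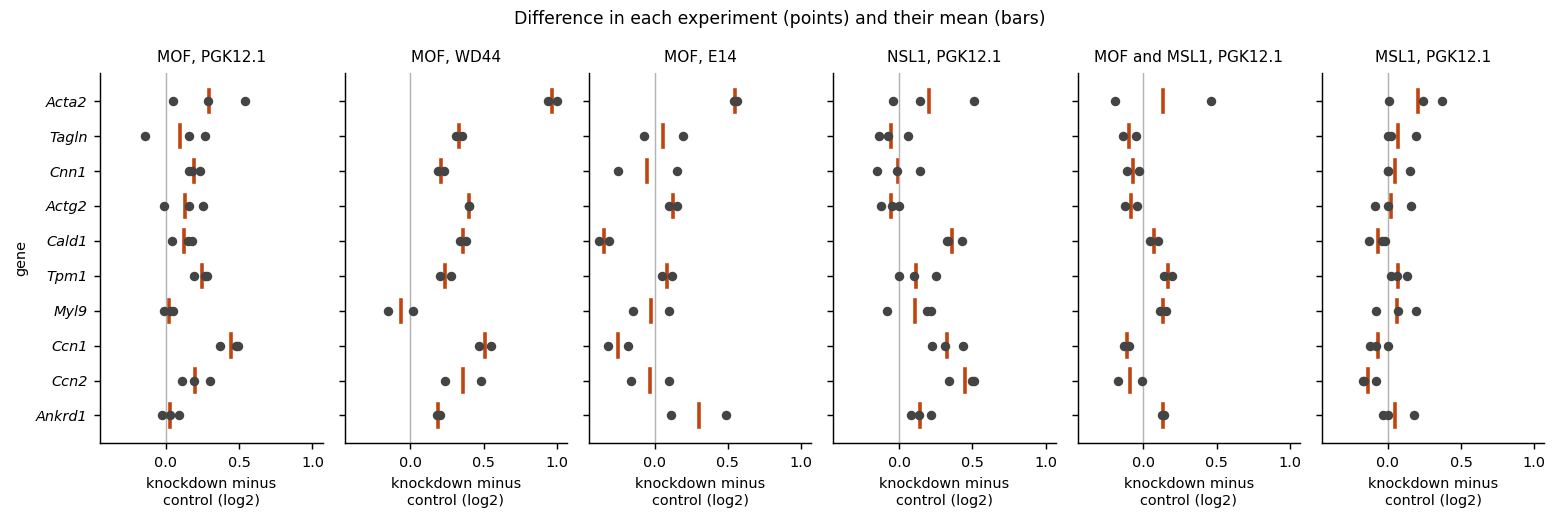
Knockdown minus control of the same experiment (log2) for each gene, with a point per experiment and an orange bar at their mean, in 6 panels by siRNA target and line. Cald1 and Ccn1 lie right of 0 in WD44, PGK12.1 and the NSL1 panel and left of 0 in E14, and the points of the MSL1 panel lie between -0.17 and 0.37.

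Other genes of both pathways were set beside the 18.4% of all probesets called higher and 21.4% called lower on arrays labelled NSL1. The lists of these genes, of their regulators and of cell type markers were drawn up with earlier results of these data known. Their counts in this and the following comparisons are therefore a description. Of the 16 other YAP targets tested, 10 rose and 0 fell, with a median difference of 0.25 over the 19 measured. Ptpn14 rose by 0.90 (SE 0.06, limma adjusted p = 6.04e-08), Tgfb2, a transforming growth factor, by 0.53 (SE 0.06, limma adjusted p = 6.05e-06), the transmembrane protein Crim1 by 0.52 (SE 0.06, limma adjusted p = 5.69e-06) and Myof by 0.38 (SE 0.05, limma adjusted p = 5.57e-05). The others that rose were Dock5, F3, Igfbp3, Amotl2, Lats2 and Gadd45a, by 0.25 to 0.36. Without the experiment as a block 4 of the 16 rose, where 4603 probesets in all were called in either direction, and 10 or 11 rose when any knockdown array was left out.

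Of the 26 other SRF and MRTF cytoskeletal targets tested, 5 rose and 5 fell on arrays labelled NSL1, with a median of 0.01. Both shares are near those of all probesets and are no result about the list. Tagln2, a widely expressed transgelin, rose by 0.24 (SE 0.06, limma adjusted p = 0.0028) and the LIM protein Fhl1 by 0.23 (SE 0.06, limma adjusted p = 0.00544). Smtn, the smooth muscle protein smoothelin, fell by 0.18 (SE 0.05, limma adjusted p = 0.0117) and the adhesion protein Tes by 0.17 (SE 0.05, limma adjusted p = 0.0125). Without the block 1 rose and 3 fell, and without NSL1 array D, or without E, 4 genes of the list were called. Of the 12 immediate early genes, the nuclear receptor Nr4a1 rose by 0.55 (limma adjusted p = 1.09e-06), the phosphatase Dusp1 rose by 0.41 (limma adjusted p = 1.04e-05) and Ier3 fell by 0.57 (limma adjusted p = 0.0005), and without NSL1 array C 5 were called.

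Regulators of both pathways were set against the same shares over all probesets. Of 8 SRF regulators tested, Elk4, a TCF partner of SRF, rose by 0.39 (limma adjusted p = 1.47e-05), Mrtfb by 0.29 (limma adjusted p = 0.000616) and Mrtfa by 0.16 (limma adjusted p = 0.047), and 0 fell. Without the block 1 of the 8 rose. Of 18 YAP regulators tested 6 rose and 1 fell. Nf2, the upstream tumour suppressor merlin, rose by 0.37 (limma adjusted p = 1.49e-05), Amotl1, which binds YAP, by 0.33 (limma adjusted p = 0.000137) and the kinase Lats1 by 0.31 (limma adjusted p = 0.000679). Lats2 rose by 0.25 (limma adjusted p = 0.00717), Tead1 by 0.22 (limma adjusted p = 0.00527) and Wwtr1, the gene of TAZ, by 0.15 (limma adjusted p = 0.0378). Tead2, a DNA-binding partner of YAP, fell by 0.43 (limma adjusted p = 1.01e-05). The list thus held restraining and activating members that moved, and mRNA levels do not measure the activity of either pathway.

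Beside 3.24% of all probesets called higher and 3.19% lower, 2 of the 16 other YAP targets rose after the double target and 0 fell. They were Ptpn14 by 0.51 (SE 0.07, limma adjusted p = 0.00126) and Tgfb2 by 0.28 (SE 0.07, limma adjusted p = 0.0292), and 1 of them was called without double-target array D, or without E. Without the block 0 of the 16 rose and 1 fell, where 438 of all 16283 probesets were called higher and 1174 lower. Of the SRF and MRTF cytoskeletal targets Cnn2, a calponin, rose by 0.41 (limma adjusted p = 0.00805), while Vcl fell by 0.31 (limma adjusted p = 0.0106), Fhl1 by 0.25 (limma adjusted p = 0.0483) and Smtn by 0.22 (limma adjusted p = 0.044). Without double-target array D 0 genes of this list were called, and without E 1 was. Set against the double target in the same fit, 7 of the 16 other YAP targets were higher on arrays labelled NSL1 and 0 lower. Over all probesets 11.3% were called higher and 15.2% lower in this contrast. Crim1 led the 7 at 0.55 (SE 0.07, limma adjusted p = 7.23e-05). Without the block 3 of the 16 were higher, where 979 of all probesets were called higher and 1013 lower. After MSL1 RNAi 1 of the 16 was called, beside 0.0983% of all probesets called higher and 0.086% lower. This gene was Myof, which fell by 0.32 (SE 0.05, limma adjusted p = 0.0283). It was not called when any of the 3 MSL1 or 2 double-target arrays was left out.

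**Figure D5:**
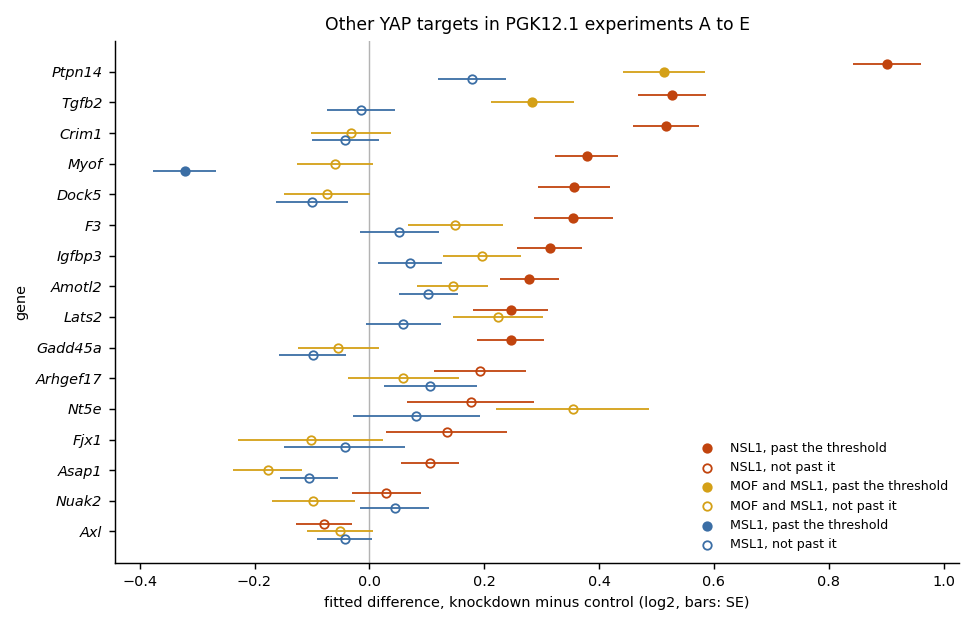
Fitted difference from control (log2) with its SE for the 16 other YAP targets tested, on arrays labelled NSL1, after the double target and after MSL1 RNAi in PGK12.1. Filled points passed the threshold, which 10 genes did on arrays labelled NSL1, 2 after the double target and 1, below 0, after MSL1 RNAi.

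Markers of other cell types on arrays labelled NSL1 were set beside these genes, again against 18.4% of all probesets called higher and 21.4% lower. Of 9 fibroblast markers tested 0 rose and 2 fell, Pdgfrb by 0.34 (limma adjusted p = 0.000346) and Thy1 by 0.23 (limma adjusted p = 0.0104). Of the 8 ES cell markers 1 fell, Tdgf1 by 0.19 (limma adjusted p = 0.00754). Of 11 primitive endoderm markers 3 rose and 0 fell, and of 7 trophectoderm markers 1 rose and 2 fell. Of 6 mesoderm markers Eomes rose by 0.52 (limma adjusted p = 0.000112) and Mixl1 fell by 0.39 (limma adjusted p = 0.000304). Of 8 heart and skeletal muscle markers Actn2 rose by 0.15 (limma adjusted p = 0.0265) and Myl7 fell by 0.42 (limma adjusted p = 0.000144). Their part in the result was not tested.

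Over the 15 differences of all experiments, the 10 genes did not follow 1 pattern. Cald1, Ccn1 and Ccn2 went together, with Pearson correlations of 0.79 (Ccn1 and Cald1), 0.77 (Ccn1 and Ccn2) and 0.76 (Cald1 and Ccn2). Acta2 went with Tagln (0.65) and Actg2 (0.71), and hardly with Cald1 (0.06). These 15 points share controls in experiments C, D and E, and the values are a description. The genes whose differences were most like the mean difference of the 8 genes past the filter were Thbs1 (r = 0.91), Cryab (0.90), Med12l (0.90), Cd7 (0.87) and Prss54 (0.86). Thbs1, a secreted matrix protein, averaged 0.63 in WD44, 0.22 in PGK12.1 and 0.01 in E14 after MOF RNAi, and 0.39 on arrays labelled NSL1.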

How the data were processed

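Expression was measured on 27 Affymetrix arrays. The deposited values were log2 expression values, 1 per probeset and array, which the authors made with Affymetrix Expression Console and RMA, per the submitters' processing notes. Tool versions and the build are not given in the sources used here. The number of arrays limits the precision. No 2 arrays were identical, and replicates correlated at 0.981 to 0.996. Of 35556 probesets 21789 had 1 gene symbol, of which 21698 matched RefSeq of GRCm38.p6, used for names and promoters. Probesets with a symbol and a mean log2 value of at least 6 (16283) were tested with limma 3.58.1 in R 4.3.3. All arrays entered 1 fit, which held a term per experiment (the block) and an effect per siRNA target and line, with 9 residual degrees of freedom. Calls were made at a Benjamini-Hochberg adjusted p under 0.05. Tables and plots were made with Python 3.11.15 and pandas 2.3.3.

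Knockdown and control arrays were paired by the experiment number or letter in the labels. Deviations from the group means correlated between arrays of 1 experiment at 0.63 to 0.87 for MOF in PGK12.1 and 0.55 to 0.78 for NSL1. They correlated at -0.05 to 0.36 for MSL1, -0.10 and 0.26 for the double target, 0.13 in E14 and 0.01 in WD44. A control of another experiment correlated more highly with MOF array 1 of PGK12.1 (0.678 against 0.667) and NSL1 array E (0.618 against 0.545). The same held for MSL1 arrays A (0.337 against 0.326) and B (0.054 against -0.046) and double-target array E (0.182 against -0.097). The pairing therefore rests on the labels. On simulated data with 200 changed probesets of 16283, the fit recovered 100% at a log2 change of -1 in each comparison with control. At -0.5 it recovered 94% for WD44, 96% for the double target, 96.5% for E14, 97.5% for MSL1 and 99.5% for NSL1 and for MOF in PGK12.1. The simulated noise was independent and normal, with the spread that the fit had estimated, so these rates do not measure power on the real arrays. The members, lists and tests were chosen with earlier results of these data known. Named were the members, the targeted genes, from each list up to 4 genes with the smallest adjusted p among those called (for MOF, with the largest mean difference of 1 sign in every experiment), and the 5 genes most like the members. Other names were added after their values were seen, where a count is spelled out or markers are described. Alternatives were a fit without the block, other filters, median centring, quantile normalization, the arrays of 1 line alone and leaving out each knockdown array in turn.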

Additional observations from a re-analysis of the deposited data

Results flagged for a closer look

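Cald1 and Ccn1 went opposite ways after MOF RNAi in every experiment of a pair of lines. The mean difference of Cald1 from control was 0.70 higher (log2) in WD44 than in E14 and 0.47 higher in PGK12.1 than in E14. For Ccn1 it was 0.76 higher in WD44 than in E14 and 0.70 higher in PGK12.1 than in E14. Each WD44 and PGK12.1 experiment was above 0 and each E14 experiment below it. These differences between lines were not tested, because the genes were chosen with the MOF contrasts known. No sample stood far from the others of its group in the groups of 4 or more arrays, the 5 control arrays of A to E.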

How the results depend on the processing

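Under all alternatives the same number of the 8 genes was called after MSL1 RNAi (0), after the double target (0) and between NSL1 and the double target (3), and on arrays labelled NSL1 it was 3, or 4 when NSL1 array C was left out, with Myl9 at 0.20 (adjusted p = 0.0387). The fit without the replicate block likewise called 0 after MSL1 RNAi, 0 after the double target, 3 between NSL1 and the double target and 3 on arrays labelled NSL1. Leaving out 1 array at a time, the median difference of the 10 genes after MOF RNAi was 0.16 to 0.18 in PGK12.1, 0.32 to 0.35 in WD44 and -0.11 to 0.12 in E14. The value of -0.11 came without E14 MOF array 1. Centring each array on its median gave 0.12 in PGK12.1 and 0.30 in WD44, and quantile normalization gave 0.36 in WD44. Over all probesets, calls with and without the block numbered 3816 and 1250 (MOF, PGK12.1), 2013 and 99 (WD44), 1357 and 109 (E14), 30 and 10 (MSL1), 1048 and 1612 (double target), 6480 and 4603 (NSL1) and 4308 and 1992 (NSL1 against double target). The WD44 and the E14 arrays fitted alone gave 0 calls in each line, with 3458 and 3224 probesets at an unadjusted p under 0.05. Median centring moved the share of calls that were higher to 24.2% against 40.5% (MOF, PGK12.1) and to 15.3% against 35.5% (WD44). The counts of the 5 SRF and YAP lists in the MSL1, NSL1, double-target and NSL1-against-double-target comparisons were recomputed under the same alternatives, a choice made after the data had been seen; list counts after MOF RNAi and counts of cell type markers were not. The causes of these changes were not tested. Low signal limits Actg2 and Ankrd1, which were not tested.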
